A study of Homo sapiens with 21 samples.

Results

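The genes described here encode the proteins of the mitochondrial ribosome, taken as the rows of a gene expression table whose symbol starts with MRPL or MRPS followed by a number and whose mean was at least 10 normalized counts over 19 libraries. Of the 20423 genes of the table, 78 had such a symbol and 77 reached that mean, namely 49 MRPL genes (large subunit) and 28 MRPS genes (small subunit). The row left out by the mean was MRPS24, with 1.83 to 26.1 normalized counts. MRPS24 shares 23.2% of its exon bases with the gene URGCP-MRPS24, and the part of this overlap in its low counts was not tested. Over all genes of the table, 13021 reached the same mean.

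Mitochondria keep a ribosome of their own, which translates the few mRNAs of the mitochondrial genome into core subunits of the respiratory chain and of ATP synthase. Its proteins are all encoded in the nucleus, translated in the cytosol and imported, so a ribosome needs matched supply from many unlinked genes. Many of these proteins descend from bacterial ribosomal proteins, and others are found in mitochondria alone. Acute myeloid leukemia cells are known to depend on mitochondrial translation and respiration.

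RNA sequencing was done in THP1, a human monocytic acute myeloid leukemia line grown in RPMI medium. The knockdown arm held 2 libraries labelled shRNA Control and 3 libraries each of 2 short hairpins in a lentiviral vector against IRF2BP2, a transcriptional cofactor (shRNA1 IRF2BP2 and shRNA2 IRF2BP2). The knockout arm held 2 libraries labelled KO Control and, for ATF7 KO and JDP2 KO alike, 2 clones with 2 libraries apiece. The clones were grown from single cells after lentiviral CRISPR editing of genes for basic leucine zipper transcription factors. A single WT library was unedited THP1 with no hairpin named in its labels. Libraries of a clone share that clone, and the labels do not say whether replicates were separate cultures, so p-values measure only the spread between these libraries.

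The libraries held between 28.7 and 60.2 M reads assigned to genes. In 3 libraries, over 20% of genes lay more than 2-fold from their median over all libraries: shRNA1 IRF2BP2 replicate 3 (48.5%), JDP2 KO clone 1 replicate 2 (38.2%) and shRNA2 IRF2BP2 replicate 3 (25.6%). These are called the libraries that stand apart, and the main counts are also given without them. IRF2BP2 itself stood at 25651 normalized counts in shRNA2 IRF2BP2 replicate 3, above both shRNA Control libraries (16973 and 18382), against that library's label. In shRNA2 IRF2BP2 replicate 2 it stood at 16649, close to the lower of these and above KO Control replicate 2 (14859). It was 12587 in shRNA2 IRF2BP2 replicate 1, and 9456, 11110 and 9802 in shRNA1 IRF2BP2. The messages of ATF7 and JDP2 were not reduced in their own clones, which does not check a CRISPR edit. Of the monocytic markers, LYZ (12307 to 106648), CD33 (512 to 2615), SPI1 and CEBPA were high in every library, while CD14 (2.16 to 157) and MPO (15.1 to 119) were low. Of the 10 monocytic markers, 3 were above both shRNA Control libraries in all 6 knockdown libraries: CSF1R (143 and 156 against 520 to 6221), ITGAM (484 and 594 against 3588 to 13513) and FCGR1A. In JDP2 KO, CD33, CSF1R and CD4 were below KO Control, and FCGR1A, SPI1 and CEBPA above it, in every library. In ATF7 KO, CD33 was below and SPI1 and CEBPA were above KO Control in every library. The T cell gene CD3E and the B cell gene MS4A1 had a median of 0.

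Promoter sequence from RefSeq (GRCh38.p14) is shown for 5 members on which the results or the motif search turn. Each run is the 250 bases before a start annotated in RefSeq, on the gene's own strand, 5′ to 3′. Matches to 6 searched motifs are in capitals. By the outer gene bounds of the GENCODE annotation used below, the runs of MRPL24, MRPS27, MRPL36 and MRPL4 lie within the gene. MRPL24 (chr1:156741089-156741338, minus strand) was the member called in both knockouts, and it held no match in these bases. The search below, which runs 50 bases past the start, found an SP1 box in MRPL24 and a YY1 core in MRPS27. MRPS23 (chr17:57850045-57850294, minus strand) and MRPS27 (chr5:72320241-72320490, minus strand) were among the members with the lowest values in a knockout and in the knockdown, and capitals mark an ETS core in the former and an SP1 box in the latter. MRPL36 (chr5:1799838-1800087, minus strand) shows the NRF1 and YY1 motifs typical of nuclear genes for mitochondrial proteins. MRPL4 (chr19:10251964-10252213, plus strand) held an SP1 box and the CRE, the textbook site of ATF family factors.
MRPL24: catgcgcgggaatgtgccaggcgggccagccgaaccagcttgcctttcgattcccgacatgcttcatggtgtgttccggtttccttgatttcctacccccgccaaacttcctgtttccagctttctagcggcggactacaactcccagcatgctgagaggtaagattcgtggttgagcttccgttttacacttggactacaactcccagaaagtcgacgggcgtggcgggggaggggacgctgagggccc
MRPS23: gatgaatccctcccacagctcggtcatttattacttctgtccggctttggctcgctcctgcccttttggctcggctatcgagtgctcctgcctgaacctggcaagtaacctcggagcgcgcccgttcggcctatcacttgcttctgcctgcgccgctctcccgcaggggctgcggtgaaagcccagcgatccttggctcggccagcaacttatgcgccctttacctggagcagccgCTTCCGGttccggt
MRPS27: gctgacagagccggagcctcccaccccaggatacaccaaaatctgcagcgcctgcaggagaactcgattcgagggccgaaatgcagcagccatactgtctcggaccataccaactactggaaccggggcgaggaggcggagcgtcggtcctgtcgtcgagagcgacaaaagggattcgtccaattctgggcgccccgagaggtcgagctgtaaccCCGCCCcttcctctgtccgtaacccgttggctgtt
MRPL36: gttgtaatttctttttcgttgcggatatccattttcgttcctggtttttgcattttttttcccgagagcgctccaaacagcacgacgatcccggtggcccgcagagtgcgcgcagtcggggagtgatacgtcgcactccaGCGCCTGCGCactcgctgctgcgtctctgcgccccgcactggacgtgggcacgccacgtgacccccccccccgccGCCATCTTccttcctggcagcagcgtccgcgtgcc
MRPL4: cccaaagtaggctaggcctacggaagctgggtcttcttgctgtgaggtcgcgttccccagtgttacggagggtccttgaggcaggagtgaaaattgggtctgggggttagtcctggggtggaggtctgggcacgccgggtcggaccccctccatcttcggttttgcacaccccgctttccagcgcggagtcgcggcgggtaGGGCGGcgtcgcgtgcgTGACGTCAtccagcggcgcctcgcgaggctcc

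The search covered both strands of the 300 bases from 250 before to 50 after each start, for 84 promoters of 68 members and 21021 promoters of protein-coding genes. The YY1 core AAGATGGC was found in 26.2% of the members' promoters and in 3.60% of all coding promoters. The ETS core CCGGAAG was found in 39.3% against 12.9%, and the NRF1 palindrome (GCGCA and GCGC with any base between them) in 11.9% against 7.39%. The SP1 box GGGCGG was about as frequent in both, at 59.5% and 57.0%. The CRE TGACGTCA was found in 1 of the 84 promoters, that of MRPL4 (1.19% against 2.24%), and the TRE TGACTCA, bound by AP-1 factors, in none (0 against 4.05%). A match is a description of letters and no evidence of binding.

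The normalized count is the read count divided by a size factor for each library, and the level of a subunit is given as the summed normalized count of its genes per 1000000 of the library's total, the scale of all sums below. Large subunit messages summed to 3532 and 2940 in shRNA Control, 2977 in WT, and 3656 and 3138 in KO Control. They summed to 2950, 2734 and 2031 in shRNA1 IRF2BP2 and to 2682, 2730.2 and 2098 in shRNA2 IRF2BP2. In the ATF7 KO libraries the sum was 3352 and 3628 (clone 1) and 3564 and 4141 (clone 2), and in the JDP2 KO libraries 3637 and 5939 (clone 1) and 3971 and 4058 (clone 2). The knockdown libraries were thus the lowest, with a narrow overlap with shRNA Control. The highest sum was that of JDP2 KO clone 1 replicate 2, followed by ATF7 KO clone 2 replicate 2, and both knockouts overlapped KO Control. Without the 3 libraries that stand apart, the knockdown ranged from 2682 to 2950 and JDP2 KO from 3637 to 4058.

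Small subunit messages gave smaller sums, and here every knockdown library stood apart from its control. The 6 knockdown libraries ranged from 904 to 1341 with a median of 1173, all below the 1682 and 1419 of shRNA Control. KO Control had 1843 and 1657, ATF7 KO 1622 to 1757 and JDP2 KO 1841 to 2521, so that both knockouts overlapped KO Control. With those 3 libraries left out, the knockdown ranged from 1153 to 1341 and JDP2 KO from 1841 to 1875. The ratio of large to small subunit sums stayed between 1.89 (KO Control replicate 2) and 2.37 (shRNA1 IRF2BP2 replicate 2) over the 19 libraries. The 78 cytosolic ribosomal protein genes, set beside them, had a mean sum of 37703 ± 8786 (SD, n = 6) in the knockdown against 64040 ± 7584 (SD, n = 2) in shRNA Control and of 63510 ± 11959 (SD, n = 4) in JDP2 KO against 65295 ± 2177 (SD, n = 2) in KO Control. The cytosolic set was thus also lowest in the knockdown. Gene by gene, it had a median log2 change of -0.53 in the knockdown, and of 0.44 in JDP2 KO with 52 of 79 genes above 0, close to the members' own median there (0.45, below). The part of this set in the members' values was not tested. In bulk RNA, fewer cells of a kind and less message per cell cannot be told apart.

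**Figure D1:**
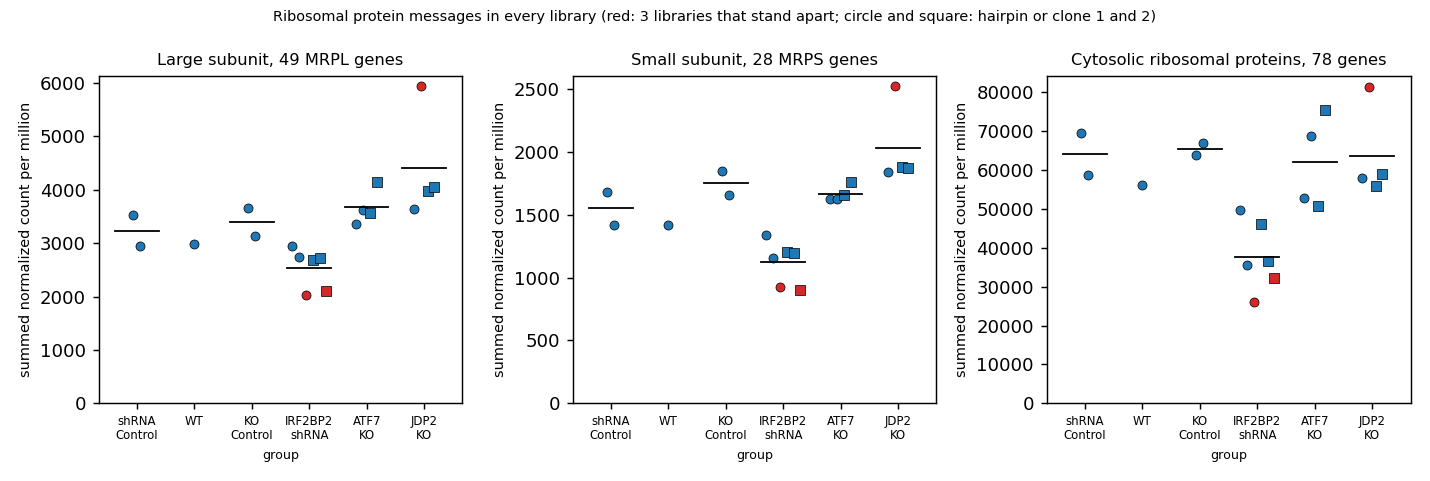
Summed normalized count per 1000000 of the library's total (vertical axis) of large subunit, small subunit and cytosolic ribosomal protein genes by group (horizontal axis), with a point for each library and a bar for the group mean. The 6 knockdown libraries lie between 904 and 1341 for the small subunit, below both shRNA Control libraries, and the highest mitochondrial sums are in JDP2 KO clone 1 replicate 2.

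Levels of single members, compared per kilobase of transcript over the 5 control libraries (shRNA Control, WT and KO Control), spanned a wide range. MRPL4 (8068 normalized counts per kilobase), MRPL37 (7792) and MRPL23 (6152) were highest, and MRPS18C (31.7), MRPL22 (85.8) and MRPL50 (114) were lowest. The median was 1532 for the large and 795 for the small subunit genes. MRPS18C, 1 of 3 human paralogs of a bacterial small subunit protein, stood far below MRPS18A (1172) and MRPS18B (555) on this scale. MRPS18A and MRPS30 carry small subunit names but sit in the large subunit of the known structure, and MRPS36 is known as a part of the oxoglutarate dehydrogenase complex. They are counted here under their names.

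The knockdown was compared with shRNA Control to ask which messages depend on IRF2BP2. Most members had lower values in the libraries labelled as knockdown, but no member passed the test. The summed level of the 10 monocytic markers was 59178 and 66112 normalized counts in shRNA Control and 68575 to 200847 in the knockdown. It was 120687 in WT and 57378 and 81230 in KO Control. LYZ and CEBPA, the markers with the highest medians, overlapped between the knockdown and shRNA Control. The part of these markers in the members' values was not tested. The median log2 change over the 77 members was -0.34, beside -0.03 over the 12738 genes tested, and 12 of 77 members lay above 0, beside 47.9% of all genes. By limma's moderated test on log2(normalized count + 1) with Benjamini-Hochberg adjustment, 0 members rose and 0 fell, while 1.79% of all genes were called (1.54% higher and 0.251% lower). At an unadjusted p under 0.05 there were 6 members, beside 14.0% of all genes. Also called were 0 members by edgeR, beside 0.973% of all genes, and 0 by DESeq2, beside 5.35%. The median was -0.30 for the large and -0.38 for the small subunit.

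The small subunit gene MRPS27, a pentatricopeptide repeat protein of the ribosome, had the lowest p of the members. MRPS27 stood at 1313 and 1472 normalized counts in shRNA Control, and at 347, 703 and 866 (lowest, median and highest) in the 6 knockdown libraries. No knockdown library reached a control library, and none reached WT (1177) or KO Control (1338 and 1861). By limma the log2 change was -1.15 ± 0.36 (SE; adjusted p 0.155), with all 6 libraries on the low side.

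MRPS30, which sits in the large subunit, had 2795 and 2342 normalized counts in shRNA Control and 784, 1487 and 1660 as lowest, median and highest in the knockdown. The groups did not overlap, and the log2 change was -0.94 ± 0.34 (SE; limma adjusted p 0.225). MRPL17, a large subunit protein with a bacterial counterpart, had 2613 and 2204 in shRNA Control and 471 to 2012 in the knockdown, with a log2 change of -0.98 ± 0.45 (SE; limma adjusted p 0.351). MRPS5, a core small subunit protein, had 540.4 and 548 in shRNA Control and 112 to 368 in the knockdown (log2 change -1.06 ± 0.42, SE; limma adjusted p 0.274). Both were lower in all 6 knockdown libraries, with replicate 3 of shRNA1 IRF2BP2 lowest.

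The other members taken by the naming rule at the low end were MRPS2 (-1.04), MRPL4 (-0.90) and MRPL2 (-0.83), all proteins with bacterial counterparts, and none passed the test. Without shRNA1 IRF2BP2 replicate 3, MRPS2 stood at -0.69 and MRPL4 at -0.57. At the high end stood MRPL33 (0.96), MRPL49 (0.42) and MRPL13 (0.31) of the large subunit, and MRPS6 (0.78), MRPS18C (0.67) and MRPS31 (0.06) of the small subunit. Without that library MRPL13 stood at 0.10, and without shRNA Control replicate 3 MRPS6 stood at 0.49. MRPL33, of the bacterial L33 family, had 242 and 231 normalized counts in shRNA Control and 226 to 716 in the knockdown, so that the groups overlapped. The knockdown libraries lay wholly below shRNA Control for 16 of 77 members (20.8%, beside 11.2% of all genes) and wholly above it for 3 (3.90%, beside 11.1%). Against all 5 controls, 9 members lay wholly below (11.7%, beside 5.20%), among them MRPS15, MRPS25, MRPL19 and MRPL3, and 1, MRPS18C, wholly above (1.30%, beside 6.23%).

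Without the 3 libraries that stand apart, the median log2 change of the members was -0.18, with 16 of 77 above 0 and 12 at an unadjusted p under 0.05, beside 26.1% of all genes. Wholly below shRNA Control lay 16 members (20.8%, beside 16.6% of all genes) and wholly above 4 (5.19%, beside 17.7%). In this fit MRPS27 (-0.97) and MRPS30 (-0.71) fell in limma, where 10.1% of all genes were called (3.78% lower and 6.35% higher). With all 5 controls as the reference, 8 members fell and 1, MRPL33, rose, beside 12.7% of all genes called (5.04% lower and 7.64% higher). In the authors' deposited table, whose fold changes follow the 5 controls (median absolute difference from the ratio of means 0.0228, against 0.108 for shRNA Control alone), 14 members were lower and 1 higher, beside 17.5% of all genes. There MRPS27 had a log2 change of -1.08 and an adjusted p of 3e-06, and MRPS30 one of -0.87 and 8.03e-05.

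**Figure D2:**
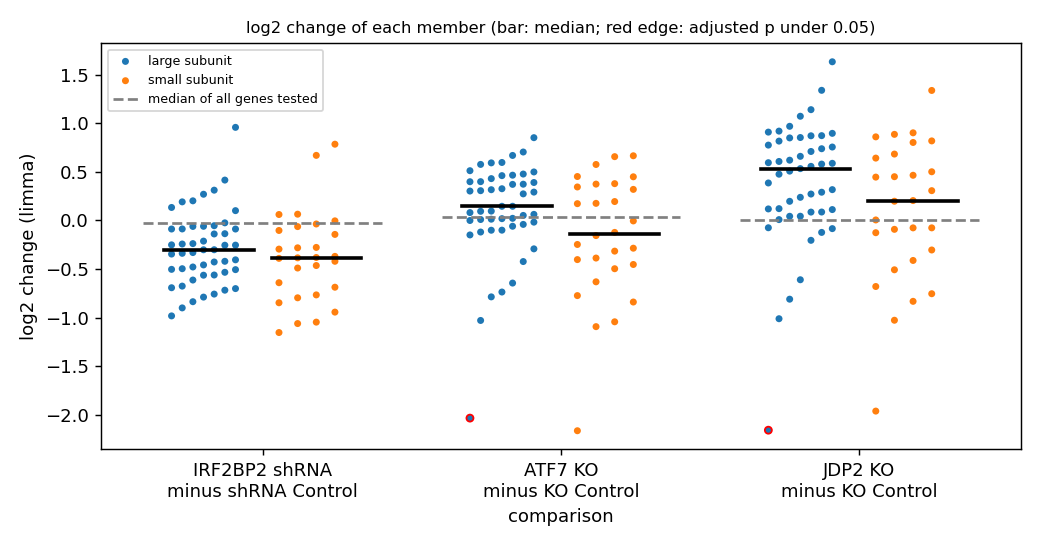
log2 change of each of the 77 members (vertical axis) in the comparisons of knockdown, ATF7 KO and JDP2 KO with their own controls, with large and small subunit apart, black bars for medians and a dashed line for the median of all genes tested. Only MRPL24, in ATF7 KO and in JDP2 KO, has the red edge of an adjusted p under 0.05.

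ATF7 KO was compared with KO Control to ask which messages depend on ATF7, and JDP2 KO with the same 2 control libraries, so these comparisons are not independent of each other. In ATF7 KO, 1 of 77 members fell, MRPL24, and 0 rose, beside 0.250% of all genes called (33 fell and 0 rose of 13208). In JDP2 KO the same gene fell and 0 members rose, beside 0.674% of all genes called (0.659% lower and 0.0151% higher). MRPL24 encodes a large subunit protein whose bacterial counterpart starts the assembly of the large subunit.

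MRPL24 stood at 4437 and 4248 normalized counts in KO Control. It stood at 1186 and 1443 in ATF7 KO clone 1 and at 664 and 1119 in clone 2. In JDP2 KO it stood at 724 and 1548 (clone 1) and at 786 and 1022 (clone 2), so that none of the 8 knockout libraries came near its control. The KO Control libraries were, however, also far above the other controls, which had 2299 and 1616 (shRNA Control) and 1564 (WT). Among the knockdown libraries MRPL24 ranged from 764 to 3388.

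MRPL24 fell in ATF7 KO, with a log2 change of -2.03 ± 0.36 by limma (SE; adjusted p 0.0399). In JDP2 KO it fell with a log2 change of -2.15 ± 0.36 (SE; limma adjusted p 0.0188), and in each knockout 4 of 4 libraries were on the low side. Against all 5 controls the changes were -1.27 and -1.39, and neither passed the limma test. The authors' deposited table listed MRPL24 at -1.24 in JDP2 KO with an adjusted p of 0.00818, and called 0 members in ATF7 KO, beside 0.315% of all genes. The change stayed between -1.81 and -2.18 in ATF7 KO, and between -2.05 and -2.19 in JDP2 KO, in the fits named next, each with 1 library left out. The ATF7 call ended without any single one of the ATF7 KO libraries, and without either JDP2 KO clone 2 library. In these fits 0.0150% to 0.172% of all genes were called, beside 0.250% with every library. The JDP2 call ended without either JDP2 KO clone 2 library, where 0.0902% and 0.150% of all genes were called, beside 0.674%. Calls were thus fewer over all genes in these fits, and not for MRPL24 alone. Leaving out either KO Control library leaves 1 in that group, so no call is given for those fits.

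The next lowest p-values in ATF7 KO belonged to small subunit genes, MRPS9 and MRPS23, which were also highest in KO Control. MRPS9 had 2379.8 and 2599.5 normalized counts in KO Control, 1081 to 1388 in ATF7 KO and 1329 to 1849.8 in JDP2 KO. Its other controls, at 1371 and 1125 (shRNA Control) and 863 (WT), overlapped or lay below the knockout libraries. MRPS23, a protein found in mitochondrial ribosomes alone, had 1745 and 1852 in KO Control, 734 to 981 in ATF7 KO and 753 to 1242 in JDP2 KO, with 1339.5, 1054 and 910.5 in the other controls.

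For both genes the knockout libraries lay below KO Control without overlap and did not separate from the 5 controls together. The log2 change in ATF7 KO was -1.04 ± 0.23 (SE; limma adjusted p 0.117) for MRPS9 and -1.09 ± 0.27 (SE; limma adjusted p 0.154) for MRPS23. In JDP2 KO it was -0.75 ± 0.23 (SE; limma adjusted p 0.200) for MRPS9 and -1.02 ± 0.27 (SE; limma adjusted p 0.133) for MRPS23. Without the 3 libraries that stand apart, MRPL24, MRPS9 and MRPS23 fell in ATF7 KO and MRPL24 and MRPS23 in JDP2 KO, beside 0.753% and 0.960% of all genes called.

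**Figure D3:**
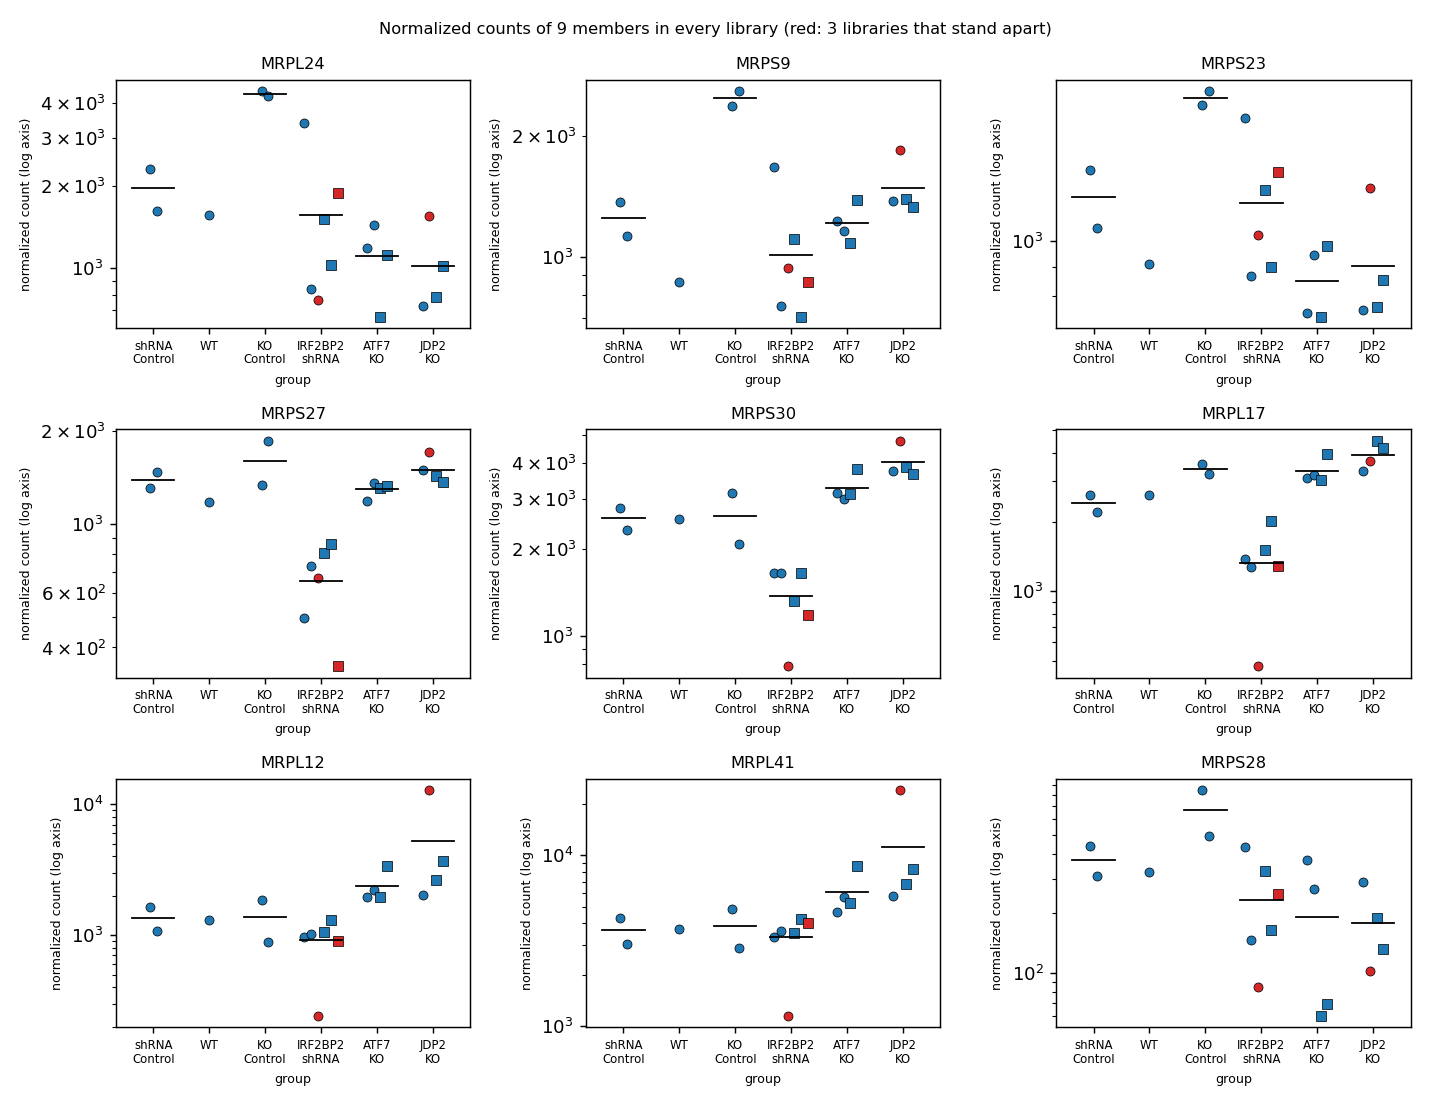
Normalized counts (vertical log axes) of 9 members by group (horizontal axis), with a point for each library, red for the 3 libraries that stand apart, and a bar for the group mean. MRPL24, MRPS9 and MRPS23 are highest in KO Control, MRPS27, MRPS30 and MRPL17 are lowest in the knockdown, and MRPL12 and MRPL41 reach 12773 and 24038 in a single JDP2 KO library.

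Over all members the ATF7 KO changes centred near 0, and 6 of 77 had an unadjusted p under 0.05, beside 7.09% of all genes. The median log2 change was 0.09 (0.04 over all genes), with 0.15 for the large and -0.14 for the small subunit, and 46 of 77 members lay above 0, beside 53.0% of all genes. Of the large subunit 34 of 49 lay above 0 and of the small subunit 12 of 28. At the high end stood MRPL12 (0.85), MRPL33 (0.70) and MRPL41 (0.67), and MRPS18C (0.67), MRPS12 (0.66) and MRPS6 (0.58), none of which passed the test. Without KO Control replicate 2, MRPL12 stood at 0.32, MRPL41 at 0.29, MRPS12 at 0.23 and MRPS6 at 0.35, and without KO Control replicate 1 MRPS18C stood at 0.38. At the low end, beside those above, stood MRPL49 (-1.03), MRPL18 (-0.78) and MRPS28 (-2.16 ± 0.69, SE; limma adjusted p 0.352). Without ATF7 KO clone 2 replicate 1, MRPL18 stood at -0.38. ATF7 KO libraries lay wholly below KO Control for 11 members (14.3%, beside 10.6% of all genes) and wholly above it for 5 (6.49%, beside 7.82%).

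MRPL44, an RNase III type protein, and MRPS22, both known from inherited mitochondrial disease, lay above all 5 controls in every ATF7 KO library, as did MRPL12. These were 3 of 77 members (3.90%, beside 2.19% of all genes), and MRPL24 alone lay below all 5 (1.30%, beside 2.49%). MRPL44 had 2305 to 3134 normalized counts there and 1629.9 to 2202 in the 5 controls. MRPS22 had 3088 to 3576 there and 2059 to 2787 in the controls. Their log2 changes against KO Control were 0.50 ± 0.26 and 0.45 ± 0.25 (SE), with limma adjusted p-values of 0.724 and 0.753.

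In JDP2 KO most members had higher values than in KO Control, without passing the test. The median log2 change was 0.45, beside 0.005 over the 13208 genes tested, with 0.53 for the large and 0.20 for the small subunit. Above 0 lay 57 of 77 members, beside 50.3% of all genes, and 26 members had an unadjusted p under 0.05, beside 16.8% of all genes. When all libraries were scaled to equal totals, the median of all genes moved to -0.22 and that of the members to 0.22, so the members lay above the median of all genes on both scales, while the small subunit's median turned to -0.03.

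MRPL12, which is known to bind the mitochondrial RNA polymerase as well as the ribosome, had the largest positive change. MRPL12 stood at 1858 and 895 normalized counts in KO Control, 2036 and 12773 in JDP2 KO clone 1, and 2658 and 3685 in clone 2. Every JDP2 KO library was above every control, but 1 library was far above the rest. Its log2 change of 1.63 ± 0.59 (SE; limma adjusted p 0.234) did not pass, and DESeq2 called it.

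MRPL41 had 4848 and 2852 normalized counts in KO Control, 5744 and 24038 in JDP2 KO clone 1, and 6793 and 8317 in clone 2 (log2 change 1.34 ± 0.50, SE; limma adjusted p 0.238). MRPS12, the counterpart of the bacterial protein that sets decoding accuracy, had 5141 and 2840.4 in KO Control, 8473 and 25124 in clone 1, and 6248 and 6519.9 in clone 2 (log2 change 1.34 ± 0.51, SE; limma adjusted p 0.243). In both genes the groups did not overlap, and the same library, JDP2 KO clone 1 replicate 2, was about 3 times the next.

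In some members the other 3 JDP2 KO libraries lay close together. MRPL46 had 656 and 470.0 normalized counts in KO Control and 828 to 1576 in JDP2 KO (log2 change 0.85 ± 0.29, SE; limma adjusted p 0.221). MRPL44 had 2069 and 1629.9 in KO Control and 2779 to 3968 in JDP2 KO (0.74 ± 0.25, SE; limma adjusted p 0.222). MRPS30 had 3131 and 2087 in KO Control and 3663 to 4770.0 in JDP2 KO (0.64 ± 0.25, SE; limma adjusted p 0.249). All 4 JDP2 KO libraries lay above all 5 controls for these 3 genes.

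Other members at the high end were MRPL55 (1.14), MRPS26 (0.90) and MRPS34 (0.89), and those at the low end, beside MRPL24 and MRPS23, were MRPL49 (-1.01), MRPL18 (-0.81), MRPS28 (-1.96) and MRPS21 (-0.83). Without JDP2 KO clone 1 replicate 2, MRPL12 stood at 1.07, MRPL41 at 0.89, MRPS12 at 0.88, MRPS26 at 0.53, MRPL18 at -0.51 and MRPL49 at -0.66. Without KO Control replicate 2, MRPS34 stood at 0.51 and MRPS21 at -0.23. JDP2 KO libraries lay wholly above KO Control for 22 of 77 members (28.6%, beside 13.0% of all genes), and wholly below it for 9 (11.7%, beside 13.8%). Against all 5 controls, 20 of the members lay wholly above (26.0%, beside 7.26%), among them MRPL58, a peptidyl-tRNA hydrolase that frees stalled ribosomes, MRPL3 and MRPL11, and 2 wholly below (MRPL24 and MRPS28, 2.60%, beside 6.05%).

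Without the 3 libraries that stand apart the members' median in JDP2 KO was 0.25, with 53 of 77 above 0 and 18 at an unadjusted p under 0.05, beside 14.2% of all genes. Wholly above KO Control lay 23 members (29.9%, beside 15.5% of all genes), and above all 5 controls 21 (27.3%, beside 8.62%). With all 5 controls and without those libraries, 6 members rose (MRPL3, MRPS30, MRPL41, MRPL11, MRPL46 and MRPL12) and MRPL24 fell. Beside them 5.48% of all genes were called (2.81% higher and 2.67% lower). With all 5 controls and every library, 0 members were called by limma, beside 2.60% of all genes. In the authors' deposited table there were 23 members higher and 2 lower in JDP2 KO, beside 12.1% of all genes (7.55% higher and 4.53% lower). The higher members were led by MRPL12 (log2 change 1.61, adjusted p 0.000959) and MRPL41 (1.36, adjusted p 0.00211).

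MRPL4, the member with a CRE in the printed bases, was not called in either knockout. MRPL4 had 12979 and 7034 normalized counts in KO Control, 10174 and 11613 in ATF7 KO clone 1, 14814 and 23532 in ATF7 KO clone 2, 12718 and 36713 in JDP2 KO clone 1, and 13131 and 15245 in JDP2 KO clone 2. ATF7 KO and JDP2 KO both overlapped KO Control.

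JDP2 KO and ATF7 KO were also compared with each other, which needs no control library. JDP2 KO had the higher value for 72 of 77 members, with a median log2 difference of 0.24, but 0 members and 0% of all genes were called by limma, and at an unadjusted p under 0.05 there was 1 member, beside 2.19% of all genes. In 5 members every JDP2 KO library lay above every ATF7 KO library (MRPL20, MRPS27, MRPS18A, MRPS35 and MRPL46; 6.49%, beside 1.52% of all genes), and in 0 below (beside 0.886%). Without JDP2 KO clone 1 replicate 2, 60 of 77 members lay above 0, with a median of 0.17 and 0 at an unadjusted p under 0.05, beside 2.12% of all genes. With equal library totals 55 of 77 members lay above 0, with a median of 0.07 beside -0.17 over all genes. The largest differences were those of MRPL12 (0.78), MRPS26 (0.72), MRPS12 (0.68) and MRPL41 (0.67), each with a limma adjusted p of 0.999.

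The clones of each knockout were compared with each other. In ATF7 KO clone 2 against clone 1, 0 members were called, beside 0.303% of all genes, and 5 had an unadjusted p under 0.05, beside 6.62%. Clone 2 lay wholly above clone 1 for 19 members (24.7%, beside 19.5% of all genes) and wholly below it for 12 (15.6%, beside 2506 of the 13208 genes tested). MRPS28, the counterpart of bacterial S1, had 375 and 266 normalized counts in clone 1 and 60.2 and 69.6 in clone 2 (log2 difference -2.27 ± 0.50, SE; limma adjusted p 0.118). MRPL18, a protein of the 5S RNA binding family, had 5423 and 5993 in clone 1 and 1393 and 2329 in clone 2 (-1.66 ± 0.47, SE; limma adjusted p 0.292). MRPL49 had 1411 and 1206 in clone 1 and 509 and 589 in clone 2 (-1.25 ± 0.44, SE; limma adjusted p 0.504).

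Clone 2 lay below clone 1 without overlap for all 3 genes, and without the libraries that stand apart all 3 fell in limma, beside 1.52% of all genes called. For MRPL18, clone 1 overlapped KO Control, while MRPS28 and MRPL49 were below KO Control in both clones. The same 3 genes were also low in JDP2 KO clone 1 replicate 2, at 103 for MRPS28, 1678 for MRPL18 and 414 for MRPL49.

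In JDP2 KO clone 2 against clone 1, 0 members were called, beside 0.136% of all genes (0.0303% higher and 0.106% lower), and 1 had an unadjusted p under 0.05, beside 2.48%, namely MRPS12 (-1.19 ± 0.49, SE; limma adjusted p 0.993). Clone 2 lay wholly above clone 1 for 1 member, MRPL17 (1.30%, beside 10.2%), and wholly below for 8 (10.4%, beside 11.3%). Without JDP2 KO clone 1 replicate 1, which leaves the apart library alone in clone 1 and takes its spread from the other groups, 3 members were called, beside 1.99% of all genes. Without replicate 2 of that clone, MRPS12 stood at -0.41, and 51 of 77 members lay above 0 (median 0.10), against 14 of 77 with it (median -0.24). For shRNA2 against shRNA1, 0 members and 0% of all genes were called by limma, with 0 members at an unadjusted p under 0.05, beside 7.20% of all genes. The shRNA2 libraries lay wholly above those of shRNA1 for 6 members (7.79%, beside 6.06%) and wholly below for 2 (2.60%, beside 7.20%). The members with the lowest p were MRPS31 (-0.72 ± 0.33, SE; limma adjusted p 0.589), MRPL39 (-0.57) and MRPS25 (0.69).

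The difference between the knockdown effect and each knockout effect was tested in 1 fit of both arms. Against ATF7 KO, 0 members passed, beside 0.337% of all genes, with a median of -0.38 and 8 of 77 members at an unadjusted p under 0.05, beside 12.5% of all genes. Against JDP2 KO, 0 members passed, beside 1.76% of all genes, with a median of -0.62 and 29 of 77 members at an unadjusted p under 0.05, beside 19.7% of all genes. The lowest values of p in that contrast were those of MRPS30 (-1.58, limma adjusted p 0.0548) and MRPS5 (-1.88 ± 0.52, SE; limma adjusted p 0.0652), and both passed with DESeq2, with a replicate block and without shRNA1 IRF2BP2 replicate 3. With the 3 libraries that stand apart left out both passed too, beside 3.97% of all genes, and the median over the members was -0.36.

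Across the 19 libraries the members varied to very different degrees. The least variable, by the SD of log2(normalized count + 1), were MRPS35 (0.25), MRPS10 (0.28) and MRPS36 (0.28) of the small subunit and MRPL30 (0.30), MRPL40 (0.31) and MRPL39 (0.34) of the large. The most variable were MRPL12 (1.14), MRPL23 (0.95) and MRPL41 (0.86), and MRPS28 (1.03), MRPS12 (0.92) and MRPS26 (0.89). MRPS35 stayed between 856 and 2000.5 normalized counts, while MRPL12 ran from 241 to 12773.

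As a description, the median Pearson r between 2 members over the 19 libraries was 0.35 over 2926 pairs, with 72.1% of pairs above 0. It was 0.38 for pairs within a subunit and 0.33 across subunits. All these values share the same libraries and size factors. MRPS2 (0.74), MRPL21 (0.69) and MRPL43 (0.69) had the highest median r with the other members. MRPL49 (-0.46), MRPL35 (-0.40) and MRPS10 (-0.35) had the lowest, and MRPL24 had -0.01.

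**Figure D4:**
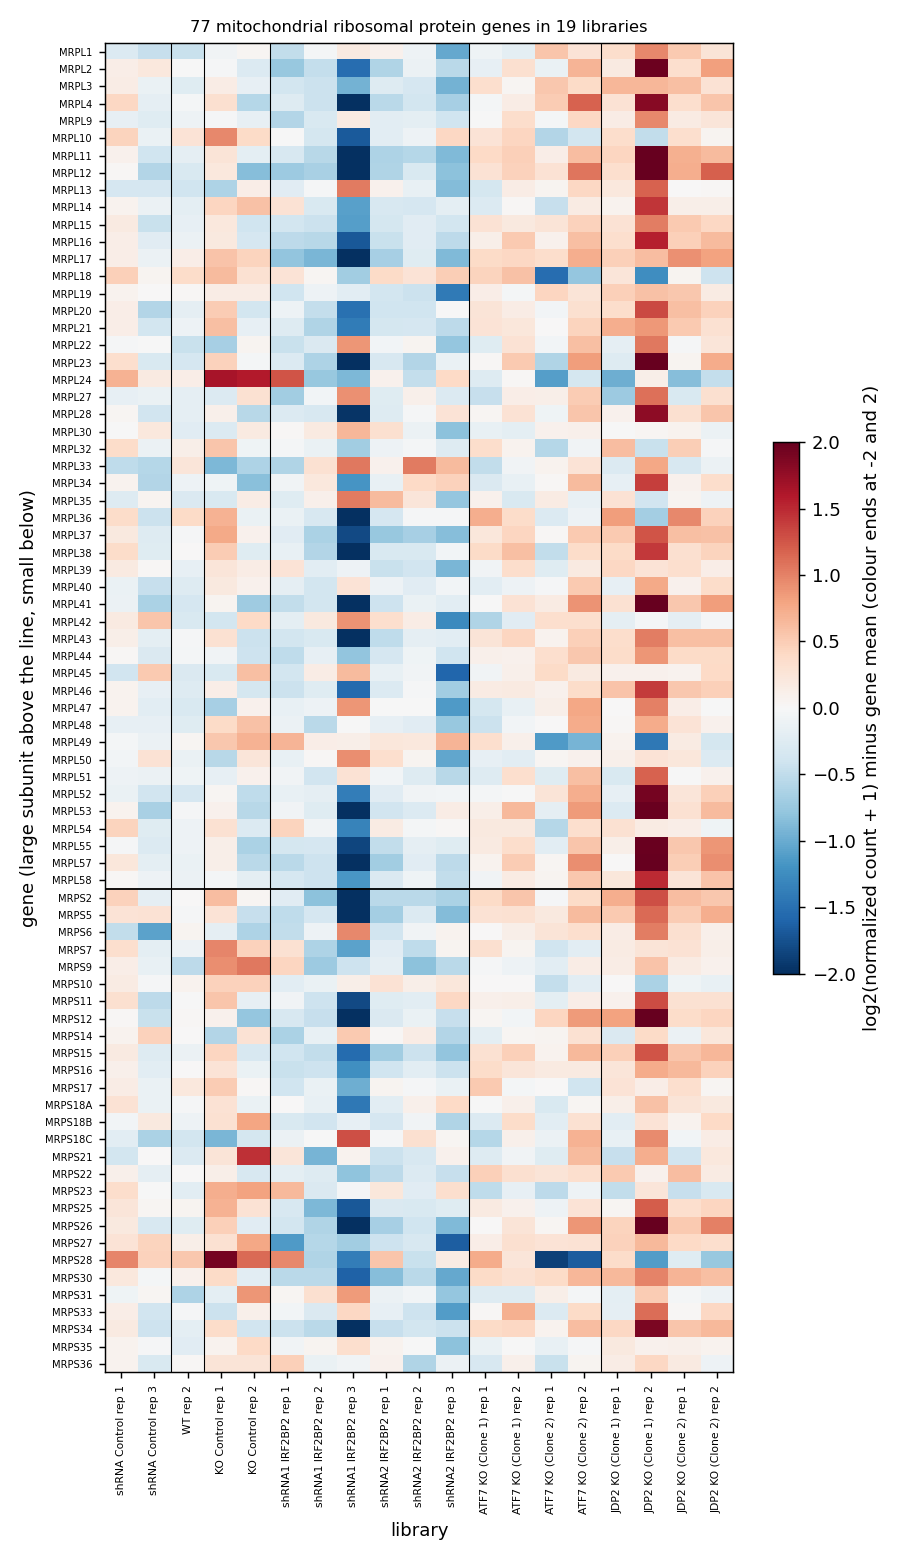
Deviation of log2(normalized count + 1) from the gene's mean over 19 libraries (colour) for 77 members (rows, large subunit above the line) and each library (columns, by group). The darkest columns are shRNA1 IRF2BP2 replicate 3 and JDP2 KO clone 1 replicate 2, and MRPL24 and MRPS28 are high in both KO Control libraries.

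Base composition moved with the members' values in several libraries, those that stand apart among them. Transcript GC content ranged from 34.96% in MRPL50 to 71.9% in MRPL41, with a median of 49.1%, beside 50.7% over all genes. In shRNA1 IRF2BP2 replicate 3, the r between GC content and deviation from the gene's mean was -0.70 over the 77 members and -0.49 over 12640 genes. In JDP2 KO clone 1 replicate 2 it was 0.55 and 0.47, and in shRNA2 IRF2BP2 replicate 3 it was 0.28 and 0.24. Among the other libraries the r over the members was 0.56 in JDP2 KO clone 2 replicate 2, 0.42 in ATF7 KO clone 1 replicate 2, -0.40 in KO Control replicate 2 and -0.48 in shRNA2 IRF2BP2 replicate 1. The median deviation in shRNA1 IRF2BP2 replicate 3 was 0.26 for the third of members lowest in GC and -1.82 for the third highest.

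Members high and low in GC also differed in the group changes. In the knockdown, the third of members lowest in GC had a median log2 change of -0.10 and the third highest one of -0.50, and without the libraries that stand apart these were -0.09 and -0.31. In JDP2 KO the medians were 0.14 and 0.64, and 0.14 and 0.40 without those libraries. In ATF7 KO they were 0.04 and 0.13. The part of base composition in the changes was not tested.

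**Figure D5:**
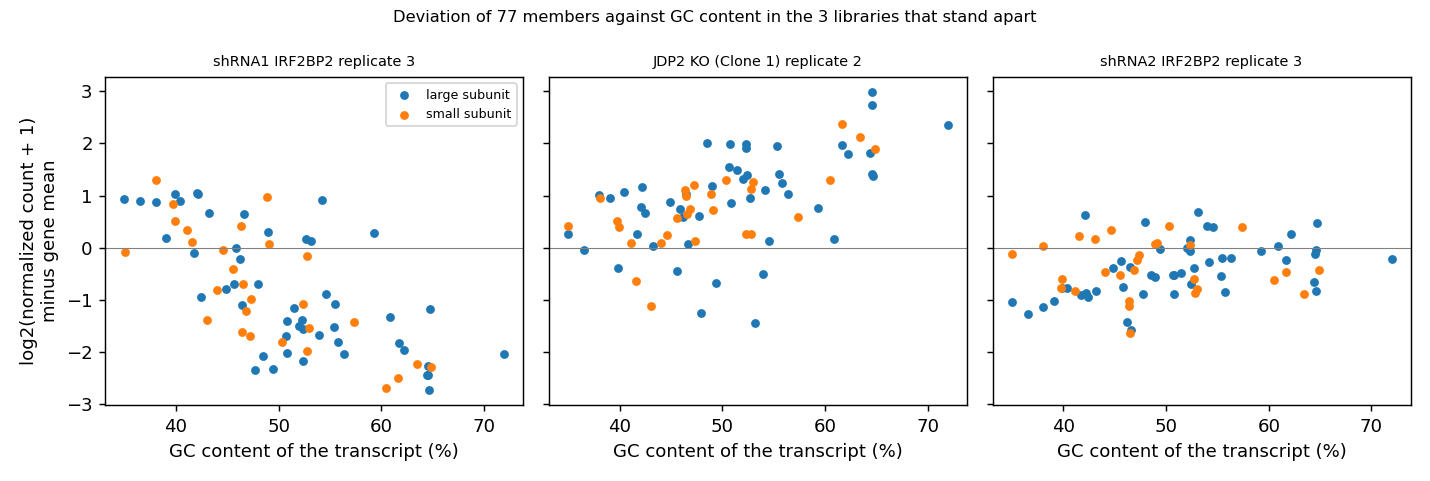
Deviation of log2(normalized count + 1) from the gene's mean (vertical axis) against transcript GC content in percent (horizontal axis) for 77 members in each of the 3 libraries that stand apart. The points fall with GC content in shRNA1 IRF2BP2 replicate 3 (r -0.70) and rise in JDP2 KO clone 1 replicate 2 (r 0.55).

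Members with a bacterial counterpart (47) and those of mitochondria alone (30) are given side by side. In the knockdown their medians were -0.37 and -0.28, in ATF7 KO 0.10 and 0.09, and in JDP2 KO 0.46 and 0.29, with no test made between the classes.

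Members often lay head to head with another gene, by the distance between annotated starts. Use of a shared promoter was not measured. In the GENCODE annotation of GRCh38, 17 of 77 members (22.1%) started within 1000 bases of a gene on the other strand, beside 7.38% of 19940 protein-coding genes. MRPL46 and MRPS11, a gene of each subunit, started 34 bases apart (chromosome 15, from 88459476 to 88467419 on the minus strand and from 88467453 to 88480773 on the plus strand). MRPL36 lay 34 bases from NDUFS6 and MRPL47 lay 36 bases from NDUFB5, both genes of respiratory complex I. For MRPL36 this is the outer GENCODE start (1801366), not the start behind its printed promoter bases (1799838 to 1800087).

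In JDP2 KO the log2 changes were 0.85 for MRPL46 and 0.31 for MRPS11, and in ATF7 KO 0.31 and -0.16. Of 16 members with a tested partner, 1 partner passed the test in a comparison with controls. This was SLC7A7, a subunit of a cationic amino acid transporter, 59 bases from MRPL52. SLC7A7 had 15.9 and 25.3 normalized counts in shRNA Control and 105 to 459 in the knockdown (log2 change 2.91 ± 0.54, SE; limma adjusted p 0.0175). MRPL52 had 3497 and 2940 in shRNA Control and 1467 to 3682 in the knockdown, with a log2 change of -0.09.

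Over 10% of exon bases were shared with another gene in 14 members, among them MRPS18A with RSPH9 (47.0%), MRPL53 with CCDC142 (45.2%) and MRPS18C with ABRAXAS1 (40.2%). How reads on shared bases were assigned is not given in the sources used here. Counts of these members could hold reads of their neighbour or lack reads of their own, the low count of MRPS18C included. In addition 34 members have named pseudogenes in the annotation, 75 in all. MRPL24, MRPS9, MRPS23 and MRPS30 shared 0% of exon bases.

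Other genes of mitochondrial translation were described from lists written for this purpose, and 0 of their members were called by limma in the knockdown, ATF7 KO or JDP2 KO. Of the 96 genes tested in these lists 10, 14 and 17 had an unadjusted p under 0.05 (10.4%, 14.6% and 17.7%, beside 14.0%, 7.09% and 16.8% of all genes). DESeq2 called 3 of them in JDP2 KO (3.12%, all lower, beside 2.87% of all genes lower and 1.19% higher). There edgeR called 0, beside 0.924% of all genes. The 5 ribosomal subunits with other symbols (DAP3, CHCHD1, AURKAIP1, PTCD3 and GADD45GIP1) had medians of -0.34, 0.05 and 0.12 in these comparisons. Of 32 assembly factors 30 were tested, with medians of -0.33, -0.06 and 0.09. RBFA, which matures the small subunit, had a mean of 495 in JDP2 KO and 1262 in KO Control (log2 change -1.36 ± 0.37, SE; limma adjusted p 0.144), and RPUSD4, a pseudouridine synthase for the large rRNA, had -1.11 ± 0.33 (SE; limma adjusted p 0.287) in ATF7 KO.

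The 16 translation factors had medians of -0.17, 0.10 and 0.04. TUFM, the elongation factor Tu of mitochondria, had a mean of 20439 in ATF7 KO and 33006 in KO Control (log2 change -0.71 ± 0.29, SE; limma adjusted p 0.604). The 20 aminoacyl-tRNA synthetase and amidotransferase genes had medians of -0.63, -0.20 and -0.18. LARS2, the leucyl-tRNA synthetase, had a mean of 919 in JDP2 KO and 3139 in KO Control (log2 change -1.89 ± 0.51, SE; limma adjusted p 0.140). WARS2, the tryptophanyl-tRNA synthetase, had 482 in the knockdown and 910 in shRNA Control (-0.95 ± 0.32, SE; limma adjusted p 0.193).

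The 12 genes of mitochondrial transcription and replication had medians of -0.28, -0.13 and -0.09, with POLG, the replicative DNA polymerase, at -0.84 ± 0.37 (SE; limma adjusted p 0.282) in JDP2 KO. The 13 mRNAs made in mitochondria, the templates of this ribosome, had medians of -0.26, 0.19 and -0.15. Summed, they made 9707 to 34034 in JDP2 KO and 24163 and 41054 in KO Control, with JDP2 KO clone 1 replicate 2 the lowest of all libraries. In that library the ribosomal protein messages were highest and the mitochondrial mRNAs lowest.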

How the data were processed

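Gene expression was measured in 19 of 21 labelled THP1 libraries; 2 marked as low quality were not analysed here. Reads were counted with featureCounts on hg38 and normalized with DESeq2, per the submitters' processing notes; the sources used here do not give the aligner, annotation or strand setting. The authors deposited DESeq2-normalized counts, a signal per gene and library. Their 3 deposited comparison tables hold a base mean (signal), a log2 fold change with its standard error, a Wald score, and p-values with adjusted p-values. The Wald score had the opposite sign of the fold change, so directions follow the fold change. Values were whole multiples of a step in each library (100% of 388037 values within 0.01), which gave read counts for edgeR and DESeq2.

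Genes with a mean of at least 10 in a fit were tested with limma 3.58.1 (trend) in R 4.3.3 on log2(normalized count + 1); changes of low genes are understated on this scale. A gene was called when its p, adjusted by Benjamini-Hochberg over all genes tested, was under 0.05. Knockdown libraries were fitted with shRNA Control (hairpins pooled), and all clones with KO Control; WT entered only the fits with all 5 controls. Alternatives were edgeR 4.0.16 and DESeq2 1.42.0, pseudocount 5, no filter, equal totals, a replicate block, all 5 controls, and leaving libraries out. Tests were checked on simulated data. Members, lists and tests were chosen with earlier results of these data known. The rule named called members, the 3 highest and 3 lowest changes of each subunit per comparison, the 3 most and least variable, and members with known roles. Others named for their level, lowest p, correlation or separation from controls (such as MRPL46) were chosen after their values were seen. Coordinates and transcripts came from GENCODE on GRCh38 and promoters from RefSeq GRCh38.p14.

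Same-numbered libraries were checked for pairing by the correlation of their deviations from group means. It ranged from -0.53 to 0.57 over 27 pairs, with 13 over 0.1. In the knockout arm, groups of 2 libraries give the same value for both numbers, so the 27 are not all separate values. The check does not settle whether the numbers pair libraries.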

Additional observations from a re-analysis of the deposited data

Results flagged for a closer look

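In 87 groups of 4 or 6 libraries, 21 had a library far from the others by Dixon's test. Many of these groups hold genes named for their changes in these libraries, and the groups share the same libraries. No rate expected by chance can therefore be set beside this count. Of the 21, 11 concern JDP2 KO clone 1 replicate 2. Its small subunit sum was 2521 per 1000000, beside 1875 in the next library. It was also far above the next library in MRPL12 (12773 beside 3685 normalized counts), MRPL4 (36713 beside 15245), MRPL41 (24038 beside 8317), MRPS12 (25124 beside 8473), MRPS34 (16395 beside 6956), MRPL13 (1824 beside 937), MRPL33 (587 beside 316), MRPL44 (3968 beside 2826), MRPL46 (1576 beside 892) and MRPS9 (1849.8 beside 1398).

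In the knockdown, 9 concern shRNA1 IRF2BP2 replicate 3. It was lowest in MRPL12 (241 beside 907 in the next library), MRPL4 (1911 beside 6601), MRPL41 (1143 beside 3330.5), MRPL55 (929.8 beside 2353), MRPS12 (859 beside 3511) and MRPS34 (909.7 beside 3047). It was highest in MRPL13 (1658 beside 863), MRPS18C (179.6 beside 90.7) and MRPS6 (992 beside 529). The last was MRPS21 in ATF7 KO clone 2 replicate 2, at 371 beside 228. In both recurring libraries over 20% of all genes also lay more than 2-fold from the median.

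The median log2 deviation of the large subunit genes lay below the shRNA Control mean in all 6 knockdown libraries and above the KO Control mean in all ATF7 KO and JDP2 KO libraries. The knockdown effect minus the knockout effect was -0.54 for ATF7 and -0.84 for JDP2. Without the 3 libraries in which over 20% of genes lay far from the median, these were -0.35 and -0.47. This difference was not tested for the subunit as a whole; gene by gene, 0 members passed in either contrast by limma.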

How the results depend on the processing

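The share of all genes called under the same setting stands in parentheses beside each count. Members called by limma in the knockdown numbered 0, and 9 with all 5 controls (12.7%), 6 with all 5 controls and without the 3 libraries that stand apart (13.8%), and 2 without those libraries (10.1%); the last 2 settings, here and below, were chosen after seeing the data. In ATF7 KO the count was 1, and 0 with no filter (0.0979%), 0 with all 5 controls (0.0307%), 0 with all 5 controls without the 3 libraries (0.197%), 3 with DESeq2 (1.69%) and 3 without the 3 libraries (0.753%). In JDP2 KO it was 1, and 4 with DESeq2 (4.06%), 2 with equal library totals (0.970%), 2 without the 3 libraries (0.960%), 0 with all 5 controls (2.60%), and 7 with all 5 controls without the 3 libraries (5.48%). Between ATF7 clones it was 0, and 1 with DESeq2 (1.66%) and 3 without the 3 libraries (1.52%). For the knockdown effect minus the JDP2 KO effect it was 0, and 5 with DESeq2 (7.62%) and 2 without the 3 libraries (3.97%). The cause of these moves was not tested.

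A replicate block rests on numbers that were not shown to pair the libraries, and 9 of 18 libraries correlated best with their own number. With it the counts were 2 in JDP2 KO (1.22%), 1 between ATF7 clones (0.704%) and 7 for the knockdown effect minus the JDP2 KO effect (6.69%). They were unchanged in the other 6 comparisons (0% to 2.31%). Leaving out each library in turn is counted here only where every group kept at least 2 libraries. This gave 0 to 3 members in ATF7 KO (0.0150% to 0.753%) and 0 to 2 in JDP2 KO (0.0902% to 0.960%). For the knockdown effect minus the JDP2 KO effect it gave 0 to 2 (0.694% to 3.35%). It gave 0 in the knockdown (1.05% to 4.92%) and in JDP2 KO against ATF7 KO (0%). It also gave 0 between hairpins (0% to 0.00807%) and for the knockdown effect minus the ATF7 KO effect (0.0383% to 0.742%). Between clones every such fit left 1 library in a group, with its spread taken from the other groups, and no count is given here. The mean difference of the small subunit's median deviation in JDP2 KO moved from 0.16 to -0.073 with equal library totals. Of the named members 1 reversed: MRPS31 in the knockdown, at 0.06, to -0.10 without shRNA1 IRF2BP2 replicate 3 (range over left-out libraries -0.10 to 0.23). Depth, at 28.7 M reads or more, limits mainly low members such as MRPS18C; the 2 control libraries in each arm limit the tests.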
